A study of Bos taurus with 33 samples.

Results

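Human interferon alpha (IFNA), delivered into the uterus of cyclic heifers in a lipid extrudate, was compared with phosphate-buffered saline (PBS), so that the difference holds the effect of the interferon together with that of its carrier. The arrays titled as treated with human IFNA and those titled as PBS controls were taken, 3 of each, which makes 6 of the 33 arrays of the study. All 9 biopsied animals were Bavarian Simmental heifers whose cycles had been synchronized with the prostaglandin analogue cloprostenol. On day 14 of the cycle, 3 heifers received the IFNA-releasing rod in PBS through the cervix into the uterine horn on the side of the functional corpus luteum, 3 received the rod without interferon (placebo) and 3 received PBS alone. On day 16 the uteri were flushed with PBS, and about 6 endometrial biopsies per animal were taken from the same horn and measured on 1 array, so each replicate is a separate heifer. The labels give neither the age of the animals nor the order in which arrays were processed. The other 24 arrays come from inseminated pregnant heifers and from cyclic heifers given sperm-free supernatant, killed on day 12, 15 or 18; those of day 15 (3 pregnant, 3 cyclic) and day 18 (4 and 4) are used below as a further set of animals. Each model has its limit: the interferon was human and not bovine, the rod was absent from the PBS group, and the biopsies mix all cell types of the endometrium.

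Around the time of maternal recognition of pregnancy the elongating ruminant conceptus secretes interferon tau, a type I interferon that signals through the same receptor as interferon alpha. Receptor binding activates the kinases JAK1 and TYK2, and transcription factors then switch on interferon-stimulated genes in the nucleus, many of them antiviral. In the endometrium these genes respond in the glands, the stroma and immune cells, while the blood vessels and the stromal matrix beneath the lining are remodelled for implantation.

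Values are log2 expression levels per probe set, and differences are log2 differences ± the standard error (SE) from limma, a linear model fitted across all probe sets. A probe set was called where the Benjamini-Hochberg adjusted p over 24016 probe sets was below 0.05, and 1 probe set stood for each of 9155 genes. Against PBS, 171 probe sets were higher with IFNA (0.712%) and 36 were lower (0.150%). By gene, 93 were higher (1.02% of genes) and 20 were lower (0.218%). The rises reached further than the falls, with a median of 1.53 (range 0.58 to 5.54) against a median of -1.05 (range -1.43 to -0.5). The median over all genes was 0.01. With 3 animals a group, a two-sided exact permutation test of 1 gene cannot go below p = 0.1, so every call rests on the spread that limma shares across genes.

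**Figure D1:**
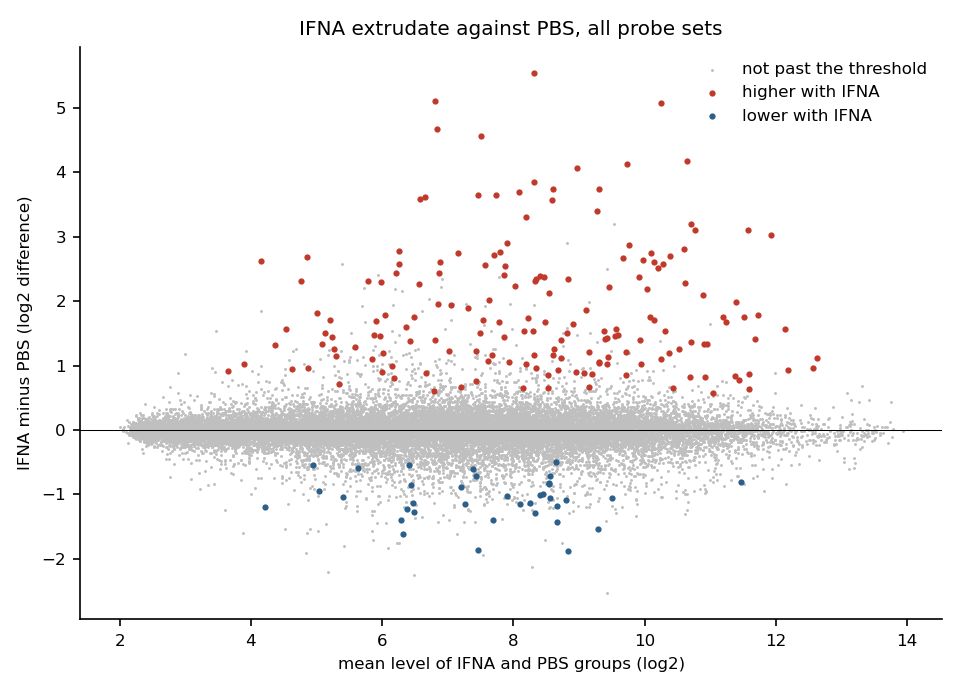
Each point is 1 of the 24016 probe sets, with the mean level of the IFNA and PBS groups (log2) on the x axis and the difference IFNA minus PBS (log2) on the y axis. Red points mark the 171 probe sets called higher and blue points the 36 called lower; the higher ones reach 5.54 and the lower ones -1.87.

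Of the 20 genes lower than in PBS, PLVAP and PECAM1 belong to the list of endothelial markers and APLNR to that of vessel growth and tone. CD93, CAVIN2, CAV2 and CDH13, in neither list, are described with them, a grouping made after the calls were seen. PLVAP, the protein that forms the diaphragms of endothelial openings, measured 8.12, 7.61 and 8.14 in the 3 IFNA animals, 8.50, 8.30 and 8.82 with placebo and 9.32, 9.37 and 9.46 with PBS. Every IFNA array lay below every placebo array, and every placebo array below every PBS array. The fall was -1.43 ± 0.176 (2.69-fold lower, adjusted p = 0.00586), and PLVAP passed in all 9 fits that left out 1 of the biopsied animals (-1.52 to -1.25). A second, dim probe set of PLVAP did not pass (-0.53 ± 0.356), and the mean of both did not pass either.

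PECAM1, an adhesion molecule at the contacts between endothelial cells, measured 8.05, 7.68 and 7.99 with IFNA, 8.82, 8.31 and 8.63 with placebo and 8.81, 8.96 and 8.97 with PBS. Its fall was -1.01 ± 0.153 (2.01-fold lower, adjusted p = 0.0199). The IFNA arrays lay clear of the other groups, while the highest placebo array overlapped the PBS arrays. A dimmer second probe set of PECAM1 stood at -0.74 ± 0.231 without passing. CD93, a surface receptor of endothelial cells and myeloid cells, fell by 1.08 ± 0.158 (adjusted p = 0.0164), with 8.40, 8.02 and 8.36 under IFNA against 9.26, 9.49 and 9.26 under PBS. CAVIN2 and CAV2, both components of the membrane pits called caveolae that are abundant in endothelium, fell by 1.06 ± 0.162 and 0.50 ± 0.0902. Their adjusted p were 0.0209 and 0.0448. CDH13, a cadherin of vascular cells without a transmembrane part, fell by 1.15 ± 0.172 (adjusted p = 0.0187). PECAM1, CD93 and CAVIN2 missed the threshold when IFNA animal 2, IFNA animal 3 or any single PBS animal was left out, and CDH13 when IFNA animal 1, IFNA animal 2 or any single PBS animal was. The differences without any 1 animal stayed at -1.08 to -0.89 for PECAM1, -1.15 to -0.96 for CD93, -1.20 to -0.92 for CAVIN2 and -1.30 to -1.0 for CDH13. The call of CAV2 ended in each of the 9 fits with an animal left out (-0.55 to -0.47), and in its other 2 probe sets the differences were -0.47 and -0.38 without passing.

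APLNR, the receptor for the vascular peptide apelin, measured 6.04, 5.07 and 5.66 with IFNA, 6.84, 6.61 and 6.59 with placebo and 6.69, 7.17 and 7.12 with PBS. IFNA animal 2 was the lowest of the 9 and placebo overlapped PBS. The fall was -1.40 ± 0.236 (2.65-fold lower, adjusted p = 0.0335). The call held only without IFNA animal 1 and without placebo animal 3, and the difference was -1.63 to -1.14 over all 9 left-out fits. A dimmer second probe set showed 0.03 ± 0.142. EFNB3, a membrane-bound ephrin ligand that signals between touching cells, measured 7.24, 6.62 and 7.11 with IFNA, 8.19, 8.03 and 7.85 with placebo and 8.52, 8.58 and 8.08 with PBS. All IFNA arrays of EFNB3 lay below all placebo arrays, and placebo overlapped PBS. Its fall was -1.40 ± 0.195 (2.65-fold lower, adjusted p = 0.0122), and the call ended without PBS animal 1 or PBS animal 2 (-1.56 to -1.22 over the left-out fits).

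IL33, a nuclear cytokine of the interleukin 1 family that endothelial and stromal cells release on injury, measured 7.81, 7.98 and 8.33 with IFNA, 8.55, 8.37 and 8.52 with placebo and 9.05, 9.13 and 9.10 with PBS. The 3 groups did not overlap, and the PBS animals differed by less than 0.1 log2. The fall was -1.05 ± 0.136 (2.08-fold lower, adjusted p = 0.00775). A second probe set of IL33 also fell, by 1.03 ± 0.178 (adjusted p = 0.0367), and the dim remaining one showed 0.16 ± 0.147. The call of the first ended without PBS animal 2 (adjusted p = 0.0517, difference between -1.20 and -0.94 over the left-out fits).

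CD5L, a scavenger protein secreted by macrophages, was the only one of the 20 genes whose IFNA mean was above its placebo mean. It measured 3.71, 3.40 and 3.76 with IFNA, 3.60, 3.57 and 3.40 with placebo and 5.07, 4.53 and 4.87 with PBS. IFNA and placebo arrays overlapped fully, and both groups lay below PBS. The fall against PBS was -1.20 ± 0.158 (adjusted p = 0.00885), placebo differed from PBS by -1.30 ± 0.158 (adjusted p = 0.428) and IFNA from placebo by 0.10 ± 0.158. All of these levels are dim, the gene was not tested where dim probe sets were left out, and the call ended without PBS animal 3 (-1.35 to -1.08).

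Among genes of the matrix and of secretion, PRELP, a leucine-rich proteoglycan that anchors basement membranes to connective tissue, measured 8.28, 7.65 and 8.30 with IFNA, 8.71, 8.71 and 8.41 with placebo and 9.49, 9.29 and 8.99 with PBS. The 3 groups did not overlap. It fell by 1.18 ± 0.202 (adjusted p = 0.0364), and the call held only without placebo animal 3 (-1.31 to -0.97 over the left-out fits). A dimmer second probe set of PRELP showed 0.04 ± 0.123. ADAM12, a metalloproteinase of mesenchymal cells, fell by 0.59 ± 0.103, CPE, a carboxypeptidase that trims prohormones, by 0.82 ± 0.129, and CCDC3, a secreted protein of vessel and fat cells, by 1.00 ± 0.164. Their adjusted p were 0.0408, 0.0242 and 0.0306. Further probe sets of CCDC3 stood at -0.37 and -0.83 without passing. STMN2, a stathmin that binds tubulin and is best known from neurons, fell by 1.27 ± 0.203 (adjusted p = 0.0261). STMN2 missed the threshold without any single IFNA animal and without PBS animal 2 or 3, CPE without any single IFNA animal and without PBS animal 1 or 2, and CCDC3 without IFNA animal 1 or 3 and without any single PBS animal. ADAM12 passed only without placebo animal 3. Over the 9 left-out fits the differences ran from -1.43 to -1.16 for STMN2, -0.91 to -0.72 for CPE, -1.13 to -0.87 for CCDC3 and -0.64 to -0.52 for ADAM12.

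The remaining falls were in membrane proteins and signalling or division genes. ABCC8, the sulfonylurea receptor of potassium channels, fell by 0.95 ± 0.148, and KCNK17, a background potassium channel, by 0.85 ± 0.15. PRRG4, a transmembrane protein with a vitamin K dependent domain, fell by 1.04 ± 0.141, MRAS, a small GTPase, by 0.60 ± 0.098, and CENPT, a kinetochore protein, by 0.55 ± 0.0902. Adjusted p were 0.0217, 0.0408, 0.0101, 0.0288 and 0.0293 in that order. A dimmer second probe set of MRAS showed 0.04 ± 0.0852. PRRG4 lost its call without IFNA animal 3 or PBS animal 2 (-1.13 to -0.94). ABCC8 missed it without any single IFNA animal and without PBS animal 1 or 3 (-1.05 to -0.82). KCNK17 (-0.92 to -0.78), MRAS (-0.66 to -0.55) and CENPT (-0.59 to -0.51) missed it without any single IFNA or PBS animal, KCNK17 also without placebo animal 2 and the other two without placebo animal 1. In these 5 genes, as in all 20 called on IFNA minus PBS, every PBS animal lay above every IFNA animal (9.12% of all genes).

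The 36 lower probe sets also held 4 that belong to genes represented by another probe set and 12 without a gene symbol. One probe set of the potassium channel gene KCNMA1 (-1.14 ± 0.185, adjusted p = 0.0285), one of SGCE, a sarcoglycan (-1.13 ± 0.195, adjusted p = 0.0369), and one of TRIB2, a pseudokinase (-0.88 ± 0.158, adjusted p = 0.0456), fell, as did the second probe set of IL33. The brightest probe sets of KCNMA1 (-1.07 ± 0.22), SGCE (-0.87 ± 0.177) and TRIB2 (-0.65 ± 0.205) did not pass. KCNMA1 stood apart from the other falls in its placebo arrays: its lower probe set measured 6.76, 6.61 and 6.74 with IFNA, 8.37, 7.97 and 8.72 with placebo and 7.96, 7.95 and 7.62 with PBS. The placebo mean of KCNMA1 was the highest of the 3 groups, and IFNA was below placebo by 1.65 (adjusted p = 0.00281). Of the probe sets without a symbol, the one that fell furthest did so by 1.87 ± 0.252 (adjusted p = 0.0101). It measured 7.82, 7.94 and 7.91 with IFNA, 9.41, 9.22 and 8.30 with placebo and 9.61, 9.76 and 9.92 with PBS. The next one fell by 1.86 ± 0.288 (adjusted p = 0.0222), from 8.59, 8.47 and 8.11 with PBS to 6.55, 6.72 and 6.33 with IFNA. Another, named for its pattern after its values were seen, had IFNA and placebo together below PBS as CD5L did. It measured 7.16, 7.17 and 6.91 with IFNA, 7.12, 6.85 and 6.90 with placebo and 7.84, 7.85 and 7.67 with PBS, a fall of -0.71 ± 0.119 (adjusted p = 0.0332).

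**Figure D2:**
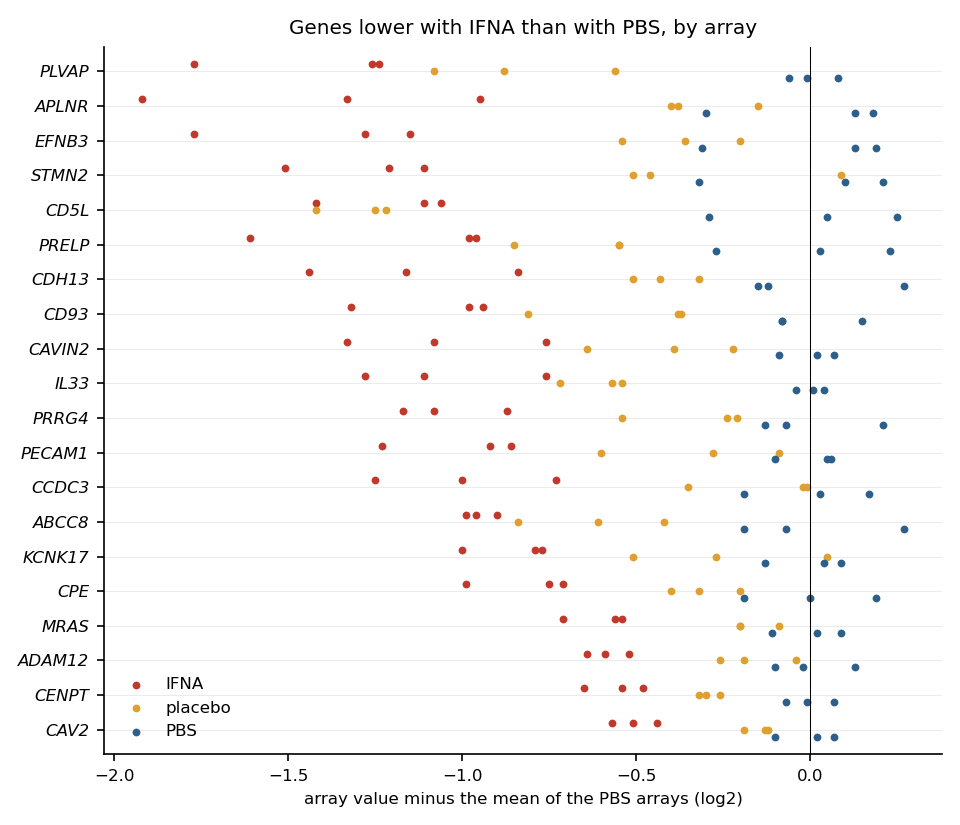
For the 20 genes lower with IFNA than with PBS, each point is 1 animal, plotted as its log2 value minus the mean of the PBS arrays; red is IFNA, yellow placebo and blue PBS. Red points lie left of all blue points in each gene because the genes were called on this difference. The mean of the yellow points lies between the other group means in 19 genes, and in CD5L the yellow points lie with the red ones.

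The placebo arrays of the same genes are set beside these values. IFNA against PBS and placebo against PBS share the PBS arrays, and the genes were chosen for PBS arrays above IFNA arrays, which by itself places placebo values below PBS and above IFNA. The values and counts that follow are therefore a description, and no effect of the carrier is read from them. Over the 20 genes the median difference was -1.05 for IFNA minus PBS, -0.33 for placebo minus PBS and -0.57 for IFNA minus placebo. The placebo mean was below the PBS mean in 20 of 20 genes (49.0% of all genes), and it lay between the IFNA and PBS means in 19. All 3 placebo arrays were below all 3 PBS arrays in 12 of the 20 genes, and all 3 placebo arrays were above all 3 IFNA arrays in 19. The shares of all genes with such separations of the placebo arrays were not computed. In no gene did placebo differ from PBS by the adjusted test (0% of all genes in either direction), although 651 of all probe sets (2.71%) and 11 of these 20 genes had an unadjusted p below 0.05. The difference between IFNA and placebo was also not called for any of the 20. Of all genes, 2 were lower there (0.0218%) and 103 higher (1.13%). At an unadjusted p below 0.05, 18 of the 20 were lower than placebo, against 357 of all 9155 genes. Among single genes PLVAP stood at -0.84 ± 0.176 with placebo and ABCC8 at -0.63 ± 0.148, whereas CCDC3 stood at -0.13 ± 0.164 and CAV2 at -0.14 ± 0.0902.

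Among the IFNA animals, animal 2 was the lowest in 13 of the 20 genes, animal 3 in 5 and animal 1 in 2. In the 12 lower probe sets without a symbol, animal 1 was the lowest in 6, animal 2 in 4 and animal 3 in 2. The shares over all genes were not computed. Without IFNA animal 2, 6 of the 20 calls remained (PLVAP, EFNB3, CD5L, IL33, PRRG4 and CCDC3), and the differences were 0.81 to 1.13 times those with it. Leaving out IFNA animal 1 or 3 kept 9 and 5 of the calls, and PBS animals 1, 2 and 3 kept 5, 3 and 5. In every one of these fits all 20 genes stayed below PBS. In the fit on the IFNA and PBS arrays alone 11 of the 20 calls remained, and with the mean over a gene's probe sets 13. The calls lost with that mean were PLVAP, APLNR, PRELP, PECAM1, CCDC3, MRAS and CAV2.

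Pregnancy gave a comparison in other animals, with no array in common. On day 18, 959 genes were lower in pregnant than in cyclic heifers (10.5%) and 1158 higher (12.6%). Of the 20 genes lower with IFNA, 10 were lower in day 18 pregnancy and none was higher: PLVAP, EFNB3, APLNR, PRELP, CDH13, CD93, PECAM1, CPE, MRAS and CENPT. The mean was lower in 19 of the 20 (52.5% of all genes), with a median difference of -0.56. On day 15, 214 genes were lower (2.34%) and 369 higher (4.03%). Of the 20, EFNB3, APLNR, PECAM1 and MRAS were lower on that day, and the mean was lower in 18 (53.5% of all genes) with a median of -0.47.

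In single genes, EFNB3 had a median of 6.98 (6.67 to 7.69) in the 4 pregnant heifers of day 18 and of 8.16 (7.96 to 8.36) in the 4 cyclic ones. The groups did not overlap, and the difference was -1.08 ± 0.183 (adjusted p = 0.000223). PLVAP had a median of 7.98 (7.67 to 8.25) in pregnant and of 9.08 (8.36 to 9.22) in cyclic animals of day 18, a difference of -0.96 ± 0.218 (adjusted p = 0.00317). PRELP was lower by 1.09 ± 0.139 on day 18 (adjusted p = 7.18e-06) and stood at -0.27 ± 0.160 on day 15. APLNR differed by -0.69 ± 0.143 on day 15 and by -0.77 ± 0.124 on day 18, without overlap on either day.

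Other falls had no counterpart that passed in pregnancy. IL33 stood at -0.54 ± 0.429 on day 15 and at -0.57 ± 0.371 on day 18, where its cyclic animals ran from 6.86 to 8.26. CD5L stood at -0.09 ± 0.302 and 0.00 ± 0.262. CAV2 stood at -0.38 ± 0.196 on day 15 and at 0.19 ± 0.169 on day 18, and PRRG4 at 0.45 ± 0.234 on day 15 and at -0.56 ± 0.202 on day 18 (adjusted p = 0.0581). The difference between the IFNA effect and the pregnancy effect was tested on all 33 arrays. None of the 20 genes was called on either day. At an unadjusted p below 0.05, 9 and 5 of the 20 were lower, against 10.88% and 11.61% of all probe sets in either direction. The 20 genes were chosen on IFNA minus PBS, which enters this test and favours such differences, so these counts are a description. Of the 12 lower probe sets without a symbol, 3 were lower on day 15 and 9 on day 18. Among all 24016 probe sets, 557 were lower on day 15 and 2439 on day 18.

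**Figure D3:**
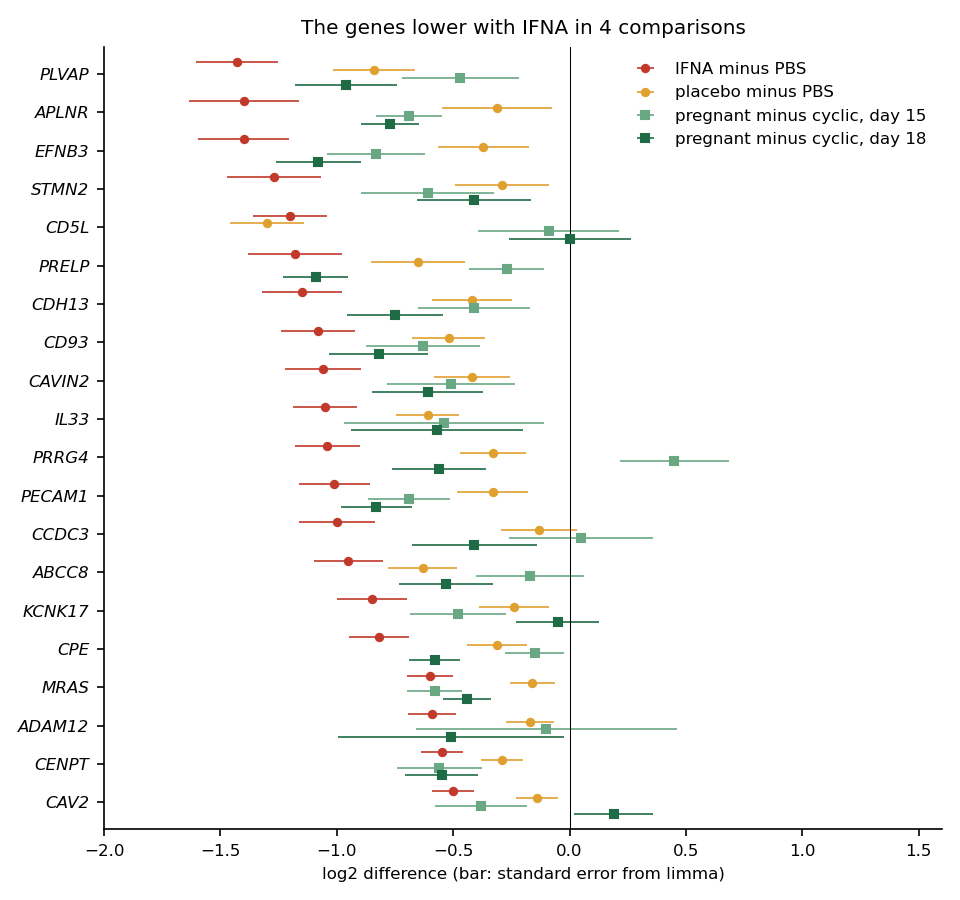
For the 20 genes lower with IFNA, points give the log2 difference and bars its standard error for IFNA minus PBS (red), placebo minus PBS (yellow), and pregnant minus cyclic on day 15 (light green) and day 18 (dark green). Most of the genes, EFNB3, APLNR and PECAM1 among them, lie left of 0 in all 4 comparisons. Differences are below 0 in 20 genes with placebo, 18 on day 15 and 19 on day 18. CD5L lies near 0 in both pregnancy comparisons (-0.09 and 0.00), and PRRG4 (0.45 on day 15) and CAV2 (0.19 on day 18) are among the points right of 0.

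Cell type markers were read beside these falls, since in a bulk biopsy fewer cells of a type and less RNA per cell cannot be told apart. Lists are described by how many members passed and by the median of their differences, to be read against 0.218% of genes lower, 1.02% higher and a median of 0.01 over all genes. Of 19 measured endothelial markers 2 fell, PLVAP and PECAM1, none rose, and 16 had a mean below PBS (median -0.36). Of these, 8 were lower at an unadjusted p below 0.05, against 526 of all genes (5.75%) lower and 502 (5.48%) higher. The mean level of the list was 7.21, 6.96 and 7.11 with IFNA, 7.41, 7.13 and 7.31 with placebo and 7.47, 7.48 and 7.61 with PBS. IFNA arrays were all below PBS arrays, placebo animal 2 lay below IFNA animal 1, the placebo group mean lay between the other two, and the placebo minus PBS median was -0.31. Members named here after their values were seen are FLT1, a receptor for vascular endothelial growth factor, at -1.28 ± 0.238 (adjusted p = 0.0543), TIE1, an endothelial kinase, at -1.13 ± 0.306 (adjusted p = 0.194) and EMCN, an endothelial sialomucin, at -0.68 ± 0.182 (adjusted p = 0.185). CDH5, the cadherin of endothelial junctions, stood at -0.49 ± 0.184 (adjusted p = 0.412). VWF, which endothelial cells store for clotting, and KDR, the main receptor for vascular endothelial growth factor, were dim on all 9 arrays, at 4.05 to 4.43 and at 3.08 to 3.25, and differed by -0.01 and -0.02. Without PBS animal 1, 2 or 3 PLVAP alone was called, without IFNA animal 2 or 3 the calls were PLVAP and FLT1, and with the mean over probe sets there was none.

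Genes of vessel growth and tone had 1 of 31 lower, APLNR, and none higher (median -0.28, with 25 means below PBS and 7 lower at an unadjusted p below 0.05). Their mean level was 8.11, 7.83 and 8.05 with IFNA, 8.31, 8.09 and 8.01 with placebo and 8.32, 8.35 and 8.31 with PBS. Placebo overlapped both groups, and its means were below PBS in 25 of the 31 genes as well. The median was -0.20 for placebo minus PBS and -0.07 for IFNA minus placebo. Also named after their values were seen, EDN3, an endothelin, stood at -1.42 (adjusted p = 0.173) and RAMP2, a partner of the adrenomedullin receptor, at -0.65 (adjusted p = 0.0769). The ligand of APLNR, APLN, stood at 0.02. The count was 0 without IFNA animal 2 or 3, placebo animal 1 or 2, or any single PBS animal, 0 with the mean over probe sets, and 3 with array weights or without IFNA animal 1.

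Of 42 measured matrix genes 1 fell, PRELP, none rose, and 39 had a mean below PBS (median -0.51), 25 of them lower and 1 higher at an unadjusted p below 0.05. In 23 of the 42 all IFNA arrays were below all PBS arrays, against 835 of all genes (9.12%). The mean level of the list was 9.28, 8.97 and 9.41 with IFNA, 9.68, 9.45 and 9.31 with placebo and 9.70, 9.85 and 9.63 with PBS. NID1, LAMB1 and COL15A1 were likewise named after their values were seen. NID1, a linker of basement membranes, stood at -1.41 and LAMB1, a laminin chain, at -1.15, both with an adjusted p of 0.11. COL15A1, a collagen of vessel basement membranes, stood at -0.78 (adjusted p = 0.094). COL3A1, a fibrillar collagen, measured 12.98, 12.56 and 13.15 with IFNA, 13.55, 13.46 and 13.40 with placebo and 13.49, 13.58 and 13.39 with PBS, a difference of -0.59 ± 0.149 (adjusted p = 0.166). Its placebo arrays lay with PBS, whereas over the list 35 of 42 placebo means were below PBS (median -0.16). The median of IFNA minus placebo over the list was -0.27. The 3 members with a mean above PBS were COL18A1, a basement membrane collagen, at 0.87 (adjusted p = 0.22), TIMP2, a protease inhibitor, at 0.07 and COL6A2, a chain of collagen VI, at 0.02. In pregnancy the median of the list was 0.01 on day 15, with 20 of 42 means below cyclic animals and 6 genes higher against 1 lower at an unadjusted p below 0.05, and -0.19 on day 18.

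Among the other cell types, stromal fibroblast markers had 0 of 14 past the threshold and 7 lower at an unadjusted p below 0.05 (median -0.50). Their mean level was 10.88, 10.68 and 11.12 with IFNA, 11.30, 11.19 and 10.96 with placebo and 11.39, 11.38 and 11.18 with PBS. Of the 14 markers, 12 had a mean below PBS with IFNA and 13 with placebo. FAP, an enzyme of activated fibroblasts, stood at -1.09 ± 0.298 (adjusted p = 0.197). Epithelial markers had 0 of 13 past the threshold, 0 with a mean below PBS and 3 higher at an unadjusted p below 0.05 (median 0.31). Their mean level was 9.10, 8.66 and 8.69 with IFNA, 8.47, 8.39 and 9.14 with placebo and 8.17, 8.30 and 8.66 with PBS, so the groups overlapped. KRT7 stood at 1.16 ± 0.301 (adjusted p = 0.173) and KRT19 at 0.75 ± 0.276 (adjusted p = 0.398), both keratins of simple epithelia. The stromal and matrix lists share 6 genes (COL1A1, COL1A2, COL3A1, LUM, DCN and FBLN1). Against PBS, the group means of the endothelial, stromal and matrix lists were lower with IFNA, and that of the epithelial list was higher. With placebo they lay on the same sides of PBS (medians of -0.31, -0.17, -0.16 and 0.28 in that order). The epithelial median of IFNA minus placebo was 0.10. Among the IFNA animals, animal 2 was the lowest in the epithelial list (8.66) as in the other lists named. The part of biopsy composition in the falls was not tested.

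**Figure D4:**
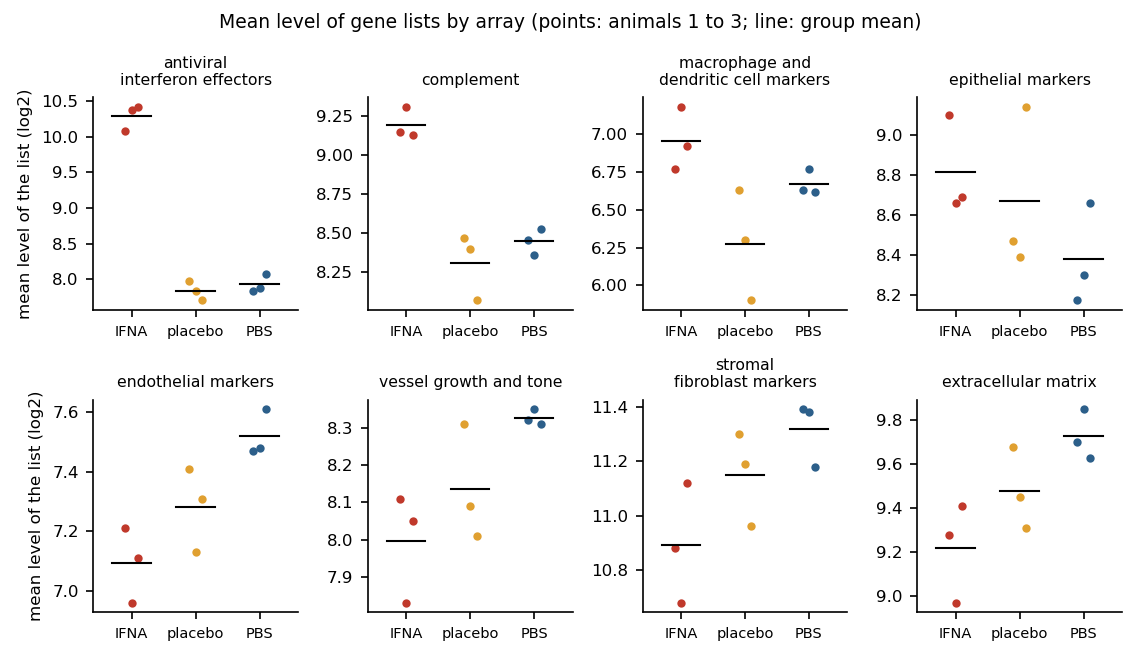
Each panel gives the mean log2 level over the measured members of a gene list in each of the 9 biopsied animals, with a line at the group mean; the y axes differ between panels. Antiviral and complement genes are high in the 3 IFNA animals alone, and endothelial, vessel, stromal and matrix lists are lowest in IFNA animal 2 (6.96, 7.83, 10.68 and 8.97).

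Smooth muscle and pericyte markers had 0 of 15 past the threshold (3 lower at an unadjusted p below 0.05, median -0.13), with RGS5, a pericyte regulator of G protein signalling, at -0.73 ± 0.179 (adjusted p = 0.154). Of 11 macrophage and dendritic cell markers CD5L fell, while 5 others were higher at an unadjusted p below 0.05 (median 0.34), and the mean level of the list was 6.77 to 7.18 with IFNA, 5.90 to 6.63 with placebo and 6.62 to 6.77 with PBS. No member passed as higher, and the lowest IFNA array was level with the highest PBS array (6.77). T and NK cell markers (0 of 15, 2 higher at an unadjusted p below 0.05, median 0.09), B and plasma cell markers (0 of 7, 1 higher, 0.07) and markers of erythrocytes and platelets (0 of 5, none at an unadjusted p below 0.05, -0.02) had no call. IGHM, the heavy chain of immunoglobulin M, stood at 1.32 ± 0.288 (adjusted p = 0.105). Of 3 measured mast cell markers none passed and 1 was lower at an unadjusted p below 0.05, FCER1A, a chain of the immunoglobulin E receptor, at -2.20 ± 0.696 (adjusted p = 0.293). It measured 6.73 and 7.11 in PBS animals 1 and 2 and 4.96 in PBS animal 3. The 2 measured ciliated cell markers, TEKT1 and CCDC39, stood at 0.15 and 0.08, and neither had an unadjusted p below 0.05.

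The neutrophil list held a pair of genes well below PBS that did not pass. S100A8, a calcium-binding alarmin of neutrophils, measured 7.46, 6.95 and 7.24 with IFNA, 9.04, 8.31 and 7.02 with placebo and 9.18, 9.22 and 9.63 with PBS. IFNA and PBS arrays did not overlap, and placebo spanned nearly the whole distance. The difference was -2.13 ± 0.429 (adjusted p = 0.0795). S100A12, a related alarmin, measured 7.38, 7.65 and 7.83 with IFNA, 9.70, 8.84 and 8.23 with placebo and 9.24, 9.50 and 9.25 with PBS, a difference of -1.71 ± 0.316 (adjusted p = 0.0525). In the fit on IFNA and PBS arrays alone both passed (adjusted p = 0.00265 for S100A8 and 0.00286 for S100A12). Of 9 neutrophil markers 0 passed, 4 were lower and 1 higher at an unadjusted p below 0.05 (median -0.06). Day 18 pregnancy had both genes higher, S100A8 by 0.90 (adjusted p = 0.00878) and S100A12 by 2.41 (adjusted p = 2.39e-06).

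RNA quality differed among the arrays. The 3′ probe set of GAPDH exceeded the 5′ one by 1.66, 2.49 and 2.98 log2 with IFNA, 2.83, 3.87 and 1.03 with placebo and 3.30, 3.11 and 1.59 with PBS, so the ranges of the groups overlapped. With this difference as a covariate all 20 lower genes passed, at 0.97 to 1.03 times their values, and 78 probe sets were lower in place of 36.

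The rises were led by interferon-stimulated genes. MX2, an antiviral GTPase, measured 10.69, 11.31 and 11.26 with IFNA, 5.80, 5.34 and 5.89 with placebo and 5.20, 5.46 and 5.99 with PBS. It rose by 5.54 ± 0.249 (46.4-fold, adjusted p = 1.64e-05), with placebo among the PBS values. ISG15, a ubiquitin-like protein that is attached to other proteins, rose 33.5-fold, IDO1, which degrades tryptophan, 25.5-fold, and RSAD2, the antiviral enzyme viperin, 18.1-fold. LOC100298356 rose 17.5-fold, and IFI44L, IFI44, USP18, SAMD9 and NUPR1 rose 13.3-fold down to 8.61-fold. These 10 largest rises passed in all 9 left-out fits, as did MX1, which rose by 3.11 ± 0.217.

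By role, 4 of 8 measured genes of interferon receptors and signalling rose and none fell (median 0.87). They were USP18, which removes ISG15 and damps the receptor (3.40 ± 0.214), IRF7 (2.34 ± 0.135), IRF9 (2.22 ± 0.190) and STAT2 (1.54 ± 0.142). The receptor chains IFNAR1 and IFNAR2 and the kinase JAK1 did not pass, at 0.20, -0.15 and -0.18. IFNAR1 was dim on all 9 arrays (2.80 to 4.36). Of 30 antiviral effectors 26 rose and none fell (median 2.38, mean level 10.08 to 10.42 with IFNA, 7.70 to 7.97 with placebo and 7.83 to 8.07 with PBS). The other four were GBP5 at 1.95 (adjusted p = 0.126), IFIT2 at 0.08, HERC5 at -0.31 and EIF2AK2 at -0.69. Complement had 6 of 18 higher and none lower (median 0.80): C4A (1.99 ± 0.266), C2 (1.68 ± 0.172), C1QB (1.65 ± 0.274), C1QC (1.44 ± 0.247), C1S (0.93) and SERPING1 (0.84), the inhibitor of the C1 complex. The complement count was 1 without IFNA animal 2 or PBS animal 2, 2 without PBS animal 1 and 3 without IFNA animal 1 or 3. C2 passed in all 9 left-out fits and C4A in 7, missing the threshold without IFNA animal 2 or PBS animal 2 (1.85 to 2.07). C1QB missed it without any single IFNA animal and without PBS animal 1 or 2 (1.42 to 1.90), and C1QC in the same fits and without placebo animal 1 or 3 (1.25 to 1.68). Of 15 measured genes for presenting antigen on MHC class I, 2 rose, TAP1 (1.53 ± 0.166), the peptide transporter, and PSMB9 (1.21 ± 0.212), an immunoproteasome subunit, which missed the threshold without any single IFNA animal, placebo animal 1 or PBS animal 1 or 2 (1.03 to 1.39). The median there was 0.43, and 9 were higher at an unadjusted p below 0.05.

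Of 24 chemokines and receptors 1 rose, CCL8 (2.23 ± 0.34, adjusted p = 0.0202), and CXCL10 stood at 3.19 ± 0.618 (adjusted p = 0.0674), with IFNA animals from 10.27 to 11.71 and PBS animals from 7.16 to 8.55. CCL8 missed the threshold without IFNA animal 2 or 3 and without any single PBS animal (2.06 to 2.54). Of 25 secreted and transport genes 3 rose: PLAC8B (2.81 ± 0.135), LGALS3BP, a galectin-binding glycoprotein (0.88 ± 0.107), and CTSS, a lysosomal protease (0.63 ± 0.102). CTSS passed only when a placebo animal or none was left out (0.57 to 0.69). Array probes for PLAC8B may also bind its close relative PLAC8A, which stood at 1.92 (adjusted p = 0.118). NUPR1, a stress-induced chromatin protein, was the only one of 18 genes of the amino acid stress response that passed (3.11 ± 0.362), with ATF4, the factor at the head of that response, at 0.19.

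The 93 genes were chosen for high values on the IFNA arrays, which IFNA minus placebo uses again, so calls against placebo were favoured in advance. Across these 93 genes the median of placebo minus PBS was -0.06. Of them, 83 were also called higher than placebo (103 of all genes, 1.13%). The other 10 were not called against placebo: BPI, NMI, PSMB9, NT5C3A, SHISA5, SELENOT, XRN2, CHMP5, SHOC2 and KRT17. Of these, SHOC2, a scaffold of the RAS pathway, KRT17, a keratin of stressed epithelium, and CHMP5 are described here after their values were seen. SHOC2 measured 8.68, 9.09 and 9.07 with IFNA, 8.90, 8.97 and 8.80 with placebo and 8.18, 8.08 and 8.04 with PBS. It was 0.85 ± 0.127 higher with IFNA (adjusted p = 0.0187) and stood at 0.79 with placebo and at 0.06 between IFNA and placebo. KRT17 was 0.80 ± 0.138 higher with IFNA (adjusted p = 0.0371) and stood at 0.60 with placebo. SHOC2 missed the threshold without IFNA animal 2 or 3 and without any single PBS animal (0.78 to 0.98), and KRT17 without any single IFNA animal, placebo animal 1 or 3, or PBS animal 1 or 3 (0.72 to 0.92). CHMP5, part of the membrane-cutting ESCRT machinery, rose by 0.58 ± 0.103 with placebo at 0.21, and passed only without IFNA animal 1 or placebo animal 3 (0.53 to 0.67). Of the 93 genes, 77 were higher in day 15 pregnancy (4.03% of all genes) and 91 in day 18 pregnancy (12.6% of all genes). Those not higher on day 18 were SHOC2 (-0.20) and FILIP1 (-0.01).

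**Figure D5:**
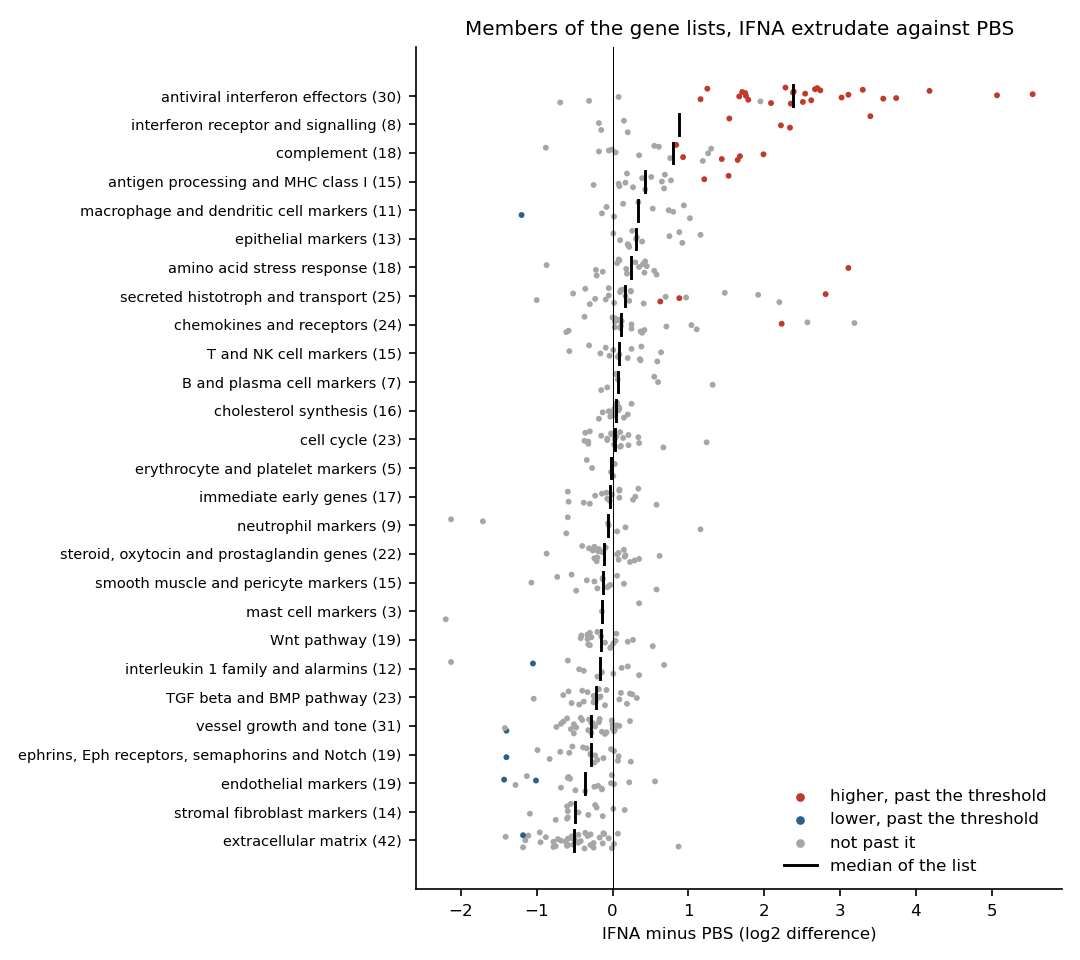
Each point is the difference IFNA minus PBS (log2) of 1 measured gene, grouped by list with the number measured in brackets, for lists of 3 or more genes; red marks genes called higher, blue genes called lower, grey the rest, and the bar is the median of the list. The interferon lists lie to the right (median 2.38 for the antiviral effectors) and the extracellular matrix list furthest to the left (-0.51).

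Other lists held few or no calls. Ephrins, Eph receptors, semaphorins and Notch genes had 1 of 19 lower, EFNB3 (median -0.29, 7 lower at an unadjusted p below 0.05), and the interleukin 1 family had 1 of 12 lower, IL33 (median -0.17). The genes of steroid, oxytocin and prostaglandin action that set the length of the cycle had 0 of 22 past the threshold, with 3 lower at an unadjusted p below 0.05. OXTR, the oxytocin receptor, measured 5.40, 5.30 and 6.47 with IFNA and 4.61, 5.85 and 4.85 with PBS, a difference of 0.62 ± 0.406. ESR1 stood at -0.21 ± 0.176, PGR at 0.17 ± 0.174 and PTGS2, the inducible enzyme of prostaglandin synthesis, at -0.24 ± 0.378. SERPINA14, the uterine milk protein, stood at 1.48 ± 0.897, with IFNA animals from 8.12 to 10.56. The SE of OXTR, PTGS2 and SERPINA14 were large beside the median of 0.147 over all probe sets. Differences of the size of the SE could not be detected with 3 animals.

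The TGF beta and BMP pathway had 0 of 23 past the threshold (3 lower at an unadjusted p below 0.05, median -0.22), the Wnt pathway 0 of 19 (1 lower, -0.15), the cell cycle 0 of 23 (2 higher and 1 lower, 0.03), immediate early genes 0 of 17 (1 higher and 1 lower, -0.04) and cholesterol synthesis 0 of 16 (none, 0.04). CCNB2, a mitotic cyclin, stood at 1.24 ± 0.256 (adjusted p = 0.0868) and AURKA, a mitotic kinase, at 0.67 ± 0.132 (adjusted p = 0.0708). Among immediate early genes ATF3 stood at 0.58 ± 0.218 with IFNA and at 1.02 with placebo, both against PBS.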

How the data were processed

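Endometrial RNA of 33 heifers was measured on Affymetrix bovine genome arrays. The deposited values are on a log2 scale, 1 per probe set. The submitters' processing notes name RMA and the affy package, without a version. Sorted values matched within the 9 biopsy arrays (largest SD 0.051) and differed over all 33 (0.333), so sets of arrays may have been normalised separately; each difference between groups is taken within a set, and the differences of effects set such differences from separate sets against each other. Of 24128 probe sets 112 controls were left out. Symbols came from the platform annotation (13292 probe sets with 1 symbol, 86 with several, 10638 with none), 13263 of them updated by gene identifier in RefSeq; a gene was represented by its brightest probe set in the biopsies. No depth applies to arrays: their number limits the precision.

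limma 3.58.1 (R 4.3.3) gave 1 mean per group and two-sided tests, separately for the 9 biopsies and the 24 pregnancy arrays, and over all 33 for differences of effects; adjusted p-values are Benjamini-Hochberg values. The fit was tested on simulated data. Named genes were every gene lower, the 10 largest rises, up to 4 called (otherwise 2) members per list and a fixed set, of which IL1RL1 had no probe set named for it. Other genes, among them FLT1, TIE1, EMCN, EDN3, RAMP2, NID1, LAMB1, COL15A1, SHOC2, KRT17 and CHMP5, were named outside this rule after their values were seen. The comparison, the 28 lists and the rule were chosen with earlier results of these data known.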

Additional observations from a re-analysis of the deposited data

Results flagged for a closer look

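In CDH13 the lowest of the 4 cyclic heifers of day 18 (7.33) stood apart from the other three, the only such animal in 40 groups of day 18 examined over the 20 lower genes; about 1 in 20 groups would show one by chance.

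For 8 of the named genes the IFNA effect (IFNA minus PBS) differed from a pregnancy effect (pregnant minus cyclic) by limma's interaction test on all 33 arrays, which over all genes called 3 higher and 4 lower on day 15 and 11 higher and 32 lower on day 18. IDO1 rose more with IFNA than on day 15 of pregnancy (difference 3.68). NUPR1 rose more with IFNA than on day 15 (3.10) and day 18 (1.87), and C2 more than on day 15 (1.27). SHOC2 (1.04) and KRT7 (1.46) were higher relative to day 18, and KRT17 lower (-1.40). S100A12 was lower relative to both days (-2.94 and -4.12), and so was S100A8 (-2.54 and -3.03): both stood below PBS with IFNA and above cyclic animals in day 18 pregnancy. The pregnancy arrays held intercaruncular endometrium taken at slaughter and the others forceps biopsies, so sampling and treatment cannot be told apart in these differences.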

How the results depend on the processing

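Over 98 named genes and unnamed lower probe sets, 1645 alternative values kept the direction of every called gene: 1328 also kept their side of the threshold, 291 lost the call and 26 gained it. Probe sets higher and lower than PBS numbered 171 and 36, and 103 to 206 and 4 to 64 with 1 animal left out; lower counts were 7, 4 and 12 without PBS animals 1, 2 and 3, 11 without IFNA animal 2 and 64 without placebo animal 3, and higher counts 103, 106, 112 and 106 without PBS animals 1, 2 and 3 and IFNA animal 2. Array weights gave 288 higher and 145 lower and the GAPDH covariate 78 lower. Against placebo, 201 higher and 7 lower became 122 and 2 in the fit on those groups alone, 58 lower with array weights, 39 lower with the GAPDH covariate, and 131 to 245 and 2 to 35 with 1 animal left out (131 higher without IFNA animal 2; lower, 12 without IFNA animal 1, 2 and 35 without placebo animals 2 and 3, and 4 without PBS animal 1 or 2). Placebo against PBS stayed at 0 throughout. For day 15 pregnancy 661 higher and 557 lower became 373 and 92 in the fit on that day alone, and 399 to 599 and 188 to 523 with 1 animal left out (higher, 413 without pregnant animal 1 and 399 without cyclic animal 2; lower, 188 and 227 without pregnant animals 1 and 3, and 212 and 315 without cyclic animals 2 and 3). For day 18, with 2123 higher and 2439 lower, no setting moved a count by over 1.5 times. The cause was not tested.

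Animal numbers in the labels did not pair the biopsy groups: same-numbered IFNA and PBS animals had correlations of deviations between -0.337 and -0.152 over 3 pairs. With the replicate number as a block 119 probe sets were higher than PBS and 13 probe sets were lower than PBS in place of 36, and 7 of the 20 lower genes kept their call. Promoter motifs were not run.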
